A study of Mus musculus with 4 samples.

Results

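Olfactory receptor, vomeronasal receptor and defensin genes form large tandem families that are used mainly outside the mammary gland, and the reads over their regions were followed here in Foxp1 chromatin immunoprecipitation (ChIP-seq) and input libraries of the mouse mammary epithelium. Members were chosen by symbol: Olfr followed by a number, Vmn1r or Vmn2r, Defb, and Defa. The deposited counts cover 24548 genes, and 1535 of them were members. The 1450 members with 40 or more reads summed over the 4 libraries entered the ratios and are called tested, out of 23128 genes in all that reached this minimum. They comprised 1108 of 1127 Olfr, 178 of 211 Vmn1r, 109 of 127 Vmn2r, 43 of 43 Defb and 12 of 27 Defa regions.

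The epithelial cells came from wild-type FVB/N females (spelled FBV/N in the sample labels) 10 to 12 weeks old, with no treatment and no transgene named. Basal cells are the outer, contractile layer of the ducts, and luminal cells line the lumen. For each cell type there was 1 library made with a Foxp1 antibody and 1 library of input DNA made with none, so no spread between replicates could be estimated, and neither a control antibody nor cells without Foxp1 were among these libraries. How many mice were pooled, and how the cells were sorted, is not stated in the labels. The libraries hold genomic DNA. Whether these genes were silent, and whether the cell type labels hold, cannot be read from RNA here, so the regions are described by family and not as silent.

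Olfactory receptors are G protein-coupled receptors of the main olfactory epithelium, where each sensory neuron uses a single receptor gene and keeps the other copies in compacted chromatin. Vmn1r and Vmn2r genes encode the V1R and V2R receptors of the vomeronasal organ, which detect pheromones and other chemical signals. Beta-defensins (Defb) are antimicrobial peptides of epithelia, many of them of the male reproductive tract, and alpha-defensins (Defa, cryptdins) are peptides of the Paneth cells of the small intestine. Foxp1 is a forkhead family transcription factor, often a repressor, and forkhead proteins bind variants of the motif TGTTTAC.

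The stretches just upstream of 5 members are shown first, as examples of members called lower in both cell types or higher in 1. They are the 150 bases before the gene start in RefSeq on GRCm38.p6, read 5′ to 3′ on the gene's strand, with CpG dinucleotides in capitals. The RefSeq start can be that of the coding exon, so such a stretch need not be a promoter. Olfr43 (chr11:74207290-74207439, minus strand) and Olfr639 (chr7:104012701-104012850, minus strand) had fewer ChIP than input reads in both cell types.
Olfr43: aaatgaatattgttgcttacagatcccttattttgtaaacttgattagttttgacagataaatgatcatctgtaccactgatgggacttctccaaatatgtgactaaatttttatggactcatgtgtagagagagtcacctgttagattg
Olfr639: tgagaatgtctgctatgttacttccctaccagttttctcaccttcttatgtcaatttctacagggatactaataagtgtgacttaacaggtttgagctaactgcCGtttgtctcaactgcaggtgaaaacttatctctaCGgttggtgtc
Vmn1r74 (chr7:11846625-11846774, plus strand) and Olfr1328 (chr4:118934841-118934990, minus strand) had more ChIP than input reads in basal cells, and Vmn2r48 (chr7:9953586-9953735, minus strand) had more in luminal cells.
Vmn1r74: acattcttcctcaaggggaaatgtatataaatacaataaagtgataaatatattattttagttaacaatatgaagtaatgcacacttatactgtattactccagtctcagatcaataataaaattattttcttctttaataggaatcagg
Olfr1328: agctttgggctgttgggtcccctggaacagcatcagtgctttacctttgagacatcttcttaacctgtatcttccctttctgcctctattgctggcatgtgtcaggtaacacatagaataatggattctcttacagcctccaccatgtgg
Vmn2r48: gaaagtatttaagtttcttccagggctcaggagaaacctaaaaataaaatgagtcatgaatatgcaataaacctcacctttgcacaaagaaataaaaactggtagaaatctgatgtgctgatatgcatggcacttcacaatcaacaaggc
The C+G share of these stretches was 33.3% for Olfr43, 40.7% for Olfr639, 25.3% for Vmn1r74, 46.7% for Olfr1328 and 36% for Vmn2r48. Only Olfr639, of these 5, held a CpG, with 2. Over the 1216 tested members with a RefSeq window (250 bases before to 50 after the start) the median C+G share was 35.7% with a median of 1 CpG, against 52.7% and 7 over the 27025 windows of the RefSeq table. The low C+G was that of the receptors, with medians of 35% for Olfr, 35.7% for Vmn1r and 38.0% for Vmn2r, while the 29 Defb windows had 48.3%.

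The gene regions held 3080114 to 4201459 reads per library, and all values below are log2 ratios or folds of counts scaled by TMM, which sets the bulk of genes to a ratio of 1. Each has a 99% exact interval that covers counting error only. A region was called higher or lower when the ratio was 1.5-fold or more and the interval excluded 1. Depth over the members was ordinary, with a median of 620 reads over the 4 libraries against 636 over all tested genes. The median member had 156 ChIP and 154 input reads in basal cells, and 125 ChIP and 180 input reads in luminal cells. The counted part of each gene is not stated. It was taken to be some kilobases around the gene start, inferred from the spacing of neighbouring genes: genes whose start lay alone had a median of 363 reads over both inputs, and those whose divergent neighbour started 4 to 5 kb away had 288. No peak positions were used, so no value here is a binding site.

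In basal cells the members as a group had fewer Foxp1 ChIP reads than input reads after scaling. Before scaling their sums were 220740 ChIP and 217020 input reads, so the deficit is relative to the bulk of genes. The median log2 ratio was -0.21, against 0.00 over the 21678 tested genes that are no members, and 1156 of 1450 members (79.7%) were below 0 compared with 49.7% of the others. Summed over all members the fold was 0.863 (99% interval 0.857 to 0.870). By the call rule 122 members (8.41%) were lower and 3 (0.207%) were higher. The background over all 23128 tested genes was 4.06% lower and 4.24% higher, so the members' share of lower calls was above the background and their share of higher calls below it. Most higher calls of other genes lay at 800 or more reads (733 of 978), a band with 21 members, so the shares were also set side by side at like depth, though the bands count the ChIP reads too. With 600 to 800 reads, 57 of 822 members (6.93%) and 2.10% of other genes were lower, and 0.122% and 1.48% were higher. With 400 to 600 reads, 57 of 519 members (11%) and 7.02% of other genes were lower, 0.193% and 1.17% were higher, and the medians were -0.25 and -0.16. The shift was small in each region: 6 of the 122 (0.414% of members) were lower by 2-fold or more, under the 0.96% of all tested genes, and the 122 were spread over 42 genomic clusters on 17 chromosomes.

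The 5 families had basal medians of the same sign. The medians were -0.21 for Olfr, -0.21 for Vmn1r, -0.20 for Vmn2r, -0.25 for Defb and -0.11 for Defa, the last over 12 regions with a median of 219.5 reads. Members called lower numbered 90 Olfr (8.12%), 12 Vmn1r (6.74%), 9 Vmn2r (8.26%), 8 Defb (18.6%) and 3 Defa (25%). The lists of defensins are short, and their shares rest on 8 and 3 regions.

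**Figure D1:**
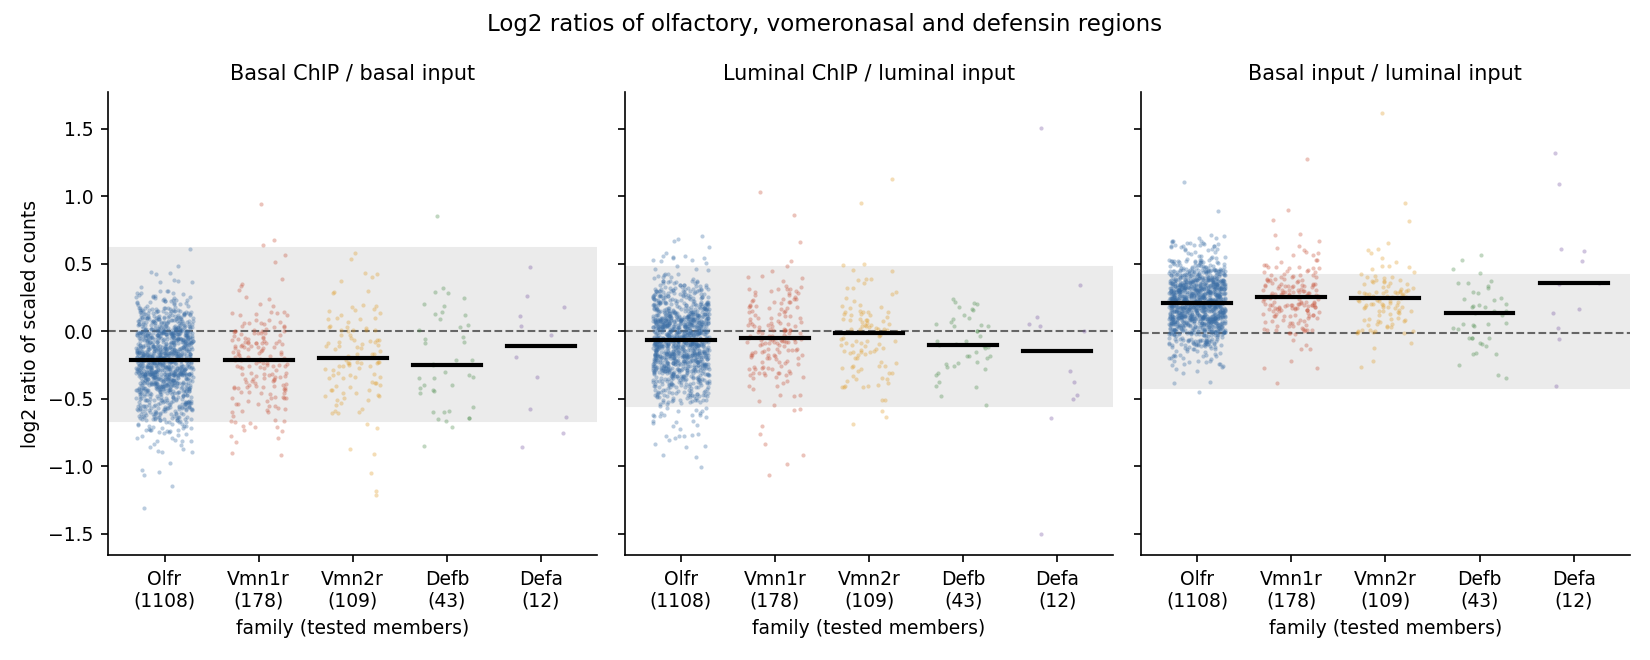
Log2 ratio of scaled counts (vertical axis) for each tested member by family, in basal ChIP over input, luminal ChIP over input and basal over luminal input. Points are regions, black bars are family medians, the dashed line is the median and the grey band the range from the 5th to the 95th percentile of tested genes that are no members. All 5 family medians lie below the dashed line on the left (-0.11 to -0.25) and above it on the right (0.13 to 0.35).

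In luminal cells, against own input, the same regions sat nearer to the other genes than in basal cells. The members' median log2 ratio was -0.07 against 0.00 for other genes. Below 0 were 870 of 1450 members (60%) compared with 49.7% of other genes, and the members' summed fold was 0.959 (0.951 to 0.966). Lower calls numbered 37 (2.55%) against a background of 2.13%, and higher calls numbered 6 (0.414%) against a background of 1.5%. The share of lower calls was thus near the background. At like depth the differences were small: with 400 to 600 reads 20 of 519 members (3.85%) and 4.10% of other genes were lower, with 600 to 800 reads 1.82% and 1.02% were lower, and higher calls in the latter band were 0.243% and 0.562%. The medians in the band of 400 to 600 reads were -0.10 for members and -0.10 for other genes. By family the medians were -0.07 for Olfr, -0.05 for Vmn1r, -0.01 for Vmn2r, -0.10 for Defb and -0.15 for Defa. The lower calls were 31 Olfr, 3 Vmn1r and 3 Vmn2r regions, and no defensin.

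The inputs, which carry no antibody, differed at these regions too. Basal input exceeded luminal input with a median log2 ratio of 0.21 over the members, compared with -0.02 over the other genes, and only 172 members (11.9%) were below 0 compared with 52.7% of other genes. The summed fold was 1.16 (1.15 to 1.17). Higher calls numbered 40 (2.76%) and lower calls 0, against a background of 0.709% higher and 0.463% lower. The medians were 0.21 for Olfr, 0.25 for Vmn1r, 0.24 for Vmn2r, 0.13 for Defb and 0.35 for Defa, and the higher calls were 28 Olfr, 8 Vmn1r, 3 Vmn2r and 1 Defa region. Among the clearest were Vmn1r71, with 196 reads in basal and 151 in luminal input (1.77-fold, 1.33 to 2.36), and Olfr309 with 211 and 176 (1.63-fold, 1.25 to 2.14). At the other end Olfr148 had 121 and 225 reads (0.733-fold), which was not called.

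The basal input is the divisor of the basal ChIP ratio and the numerator of the ratio between inputs, so both hold the same reads. With both inputs summed as the divisor in each cell type, the order of the cell types turned: the members' median was -0.10 in basal and -0.16 in luminal cells. Lower calls then numbered 49 in basal cells (3.38%, background 3.74%) and 56 in luminal cells (3.86%, background 2.4%). The basal excess of lower calls over the background was thus absent with summed inputs. Of the calls against own input, 46 of the 122 basal and 35 of the 37 luminal calls were kept. A lower ratio in basal than in luminal cells therefore held only against each cell type's own input. Both medians stayed below 0 under either divisor. The ChIP libraries compared directly gave a median of 0.07 for basal over luminal, with 70 members called higher (4.83%) and 28 lower (1.93%) against backgrounds of 4.05% and 3.98%.

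The regions lowest in basal ChIP were olfactory and V2R receptor loci. Olfr1085 had 91 ChIP and 171 input reads in basal cells and 134 and 201 in luminal cells, a basal fold of 0.452 (0.319 to 0.633) and a luminal fold of 0.907. Olfr341 had 120, 210, 137 and 225 reads in that order, with a basal fold of 0.485 (0.357 to 0.653). Vmn2r75 had 117, 205, 137 and 196 reads, with a basal fold of 0.484 (0.356 to 0.655). In these 3 the basal ChIP was the lowest and the basal input the highest library by scaled counts, and the luminal pair did not differ by the call rule. Vmn2r50, at 0.432-fold, rested on 29 ChIP and 57 input reads. Among the V1R receptors the lowest were Vmn1r199 (109 and 163 reads, 0.568-fold) and Vmn1r195 (122 and 179 reads, 0.578-fold), which lie in the same cluster on chromosome 13.

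Defensins lowered in basal cells came from both classes. Defb11 had 78 reads in basal ChIP and 119 in basal input (0.556-fold, 0.376 to 0.815), and 77 and 146 in the luminal pair (0.718-fold, not called). Defb4, an inducible beta-defensin of epithelia, had 90 and 121 reads in the basal pair (0.631-fold, 0.435 to 0.910) and 110 and 132 in the luminal pair (1.13-fold). The other 6 beta-defensins called were Defb9, Defb15, Defb20, Defb33, Defb41 and Defb45, with basal log2 ratios from -0.71 for Defb9 to -0.59 for Defb20. Of the alpha-defensins, Defa-ps13 (89 and 137 reads, 0.551-fold), a transcribed pseudogene in RefSeq, Defa34 (53 and 76 reads, log2 -0.76) and Defa29 (75 and 99 reads, log2 -0.64) were lower.

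Higher calls were few, at 3 in basal cells (0.207%, background 4.24%) and 6 in luminal cells (0.414%, background 1.5%). With so few calls, the lack of a region called higher in both cell types says nothing about the members. In basal cells Defb2 (chr8:21839926-21843482) had 128 ChIP and 60 input reads, compared with 72 and 92 in luminal cells, a basal fold of 1.81 (1.21 to 2.77). Vmn1r74 (chr7:11846775-11847689) had 216 and 115 reads in the basal pair and 106 and 150 in the luminal pair, with a basal fold of 1.59 (1.18 to 2.17). Olfr1328 (chr4:118933899-118934840) had 235 and 131, then 100 and 154, with a basal fold of 1.52 (1.15 to 2.04). In each of these 3 the basal ChIP was the high library and the luminal ratio was within 1.5-fold. Defb2 lies beside Defb50 and Defb1, the constitutive beta-defensin of many epithelia, on chromosome 8. Defb1 had 182 reads in basal ChIP and 95 in luminal ChIP, and Defb50 had 198 and 89. Basal over luminal ChIP was 1.63-fold for Defb1, 1.89-fold for Defb50 and 1.51-fold for Defb2, all called higher. Their own-input ratios in basal cells were 1.09, 1.22 and 1.81. Over all 43 tested Defb regions, 4 (9.30%) were higher and 2 (4.65%) lower in basal over luminal ChIP, with a median log2 of -0.03. The backgrounds were 4.05% higher and 3.98% lower, so the 3 neighbours do not stand for the family.

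In luminal cells 3 olfactory receptors were higher at ordinary depth. Olfr1 had 170 ChIP and 142 input reads in luminal cells and 152 and 163 in basal cells (luminal fold 1.63, 1.21 to 2.20). Olfr1457 had 181 and 153, then 136 and 165 (1.61-fold, 1.21 to 2.15). Olfr191 had 207 and 183, then 249 and 192 (1.54-fold, 1.18 to 2.01). All 3 had more scaled reads in basal than in luminal input, at 1.56-fold for Olfr1, 1.47-fold for Olfr1457 and 1.43-fold for Olfr191, and none was called higher with both inputs summed as divisor. The other 3 rested on few reads: Vmn2r48 had 66 and 41 (2.19-fold, 1.30 to 3.77), Vmn1r159 had 57 and 38 (2.04-fold, 1.17 to 3.62) and Defa30 had 25 and 12 (2.83-fold, 1.12 to 7.94). Of the 6, only Vmn2r48 was called with summed inputs.

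Lower in luminal cells alone were receptor regions whose luminal ChIP library was the low one. Olfr765 had 74 ChIP and 202 input reads in luminal cells and 177 and 147 in basal cells, with a luminal fold of 0.498 (0.345 to 0.708) and a basal fold of 1.02. Olfr15, in a cluster of 2 tested regions on chromosome 16, had 70 and 182, then 155 and 145 (0.523-fold). Olfr32 had 72 and 185, then 133 and 145 (0.530-fold). Vmn1r188, at 0.479-fold, rested on 25 ChIP and 71 input reads.

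Lower in both cell types were 3 members. With 8.41% of members called lower in basal and 2.55% in luminal cells, this overlap says little about how alike the cell types are. The share of all tested genes lower in both is not given here. Olfr43 (chr11:74206198-74207289) had 132 ChIP and 181 input reads in basal cells and 73 and 177 in luminal cells, with folds of 0.619 (0.457 to 0.835) and 0.561 (0.385 to 0.805). Olfr639 (chr7:104011750-104012700) had 102, 139, 86 and 186 reads, with folds of 0.623 and 0.629. Olfr1348 (chr7:6501286-6502224) had 101, 131, 69 and 144 reads, with folds of 0.654 and 0.652. A further 119 members were lower in basal cells alone, 34 in luminal cells alone, and 0 were higher in both. The shares of all tested genes in these classes are not given here either, so the counts say nothing particular about the members. Each of these counts is of calls, and the difference between cell types was not tested. Across the 1450 members the basal and luminal log2 ratios had a Pearson r of -0.01 and a Spearman rho of -0.01, compared with 0.22 and 0.26 across other genes. The 2 ratios share no library, and regions are not independent replicates. With both inputs summed, Olfr43 and Olfr1348 were no longer called in basal cells, at log2 -0.44 for each.

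**Figure D2:**
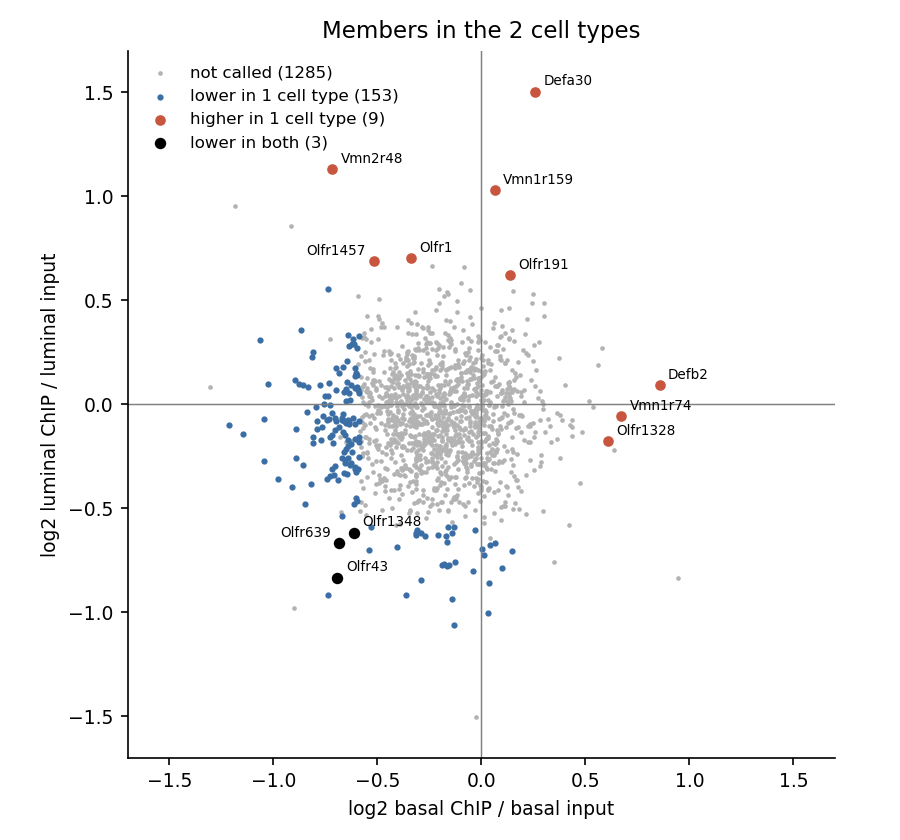
Log2 ratio of ChIP over own input in basal (horizontal axis) and luminal cells (vertical axis), 1 point per tested member, coloured by call. The 3 black points are Olfr43, Olfr639 and Olfr1348, and the cloud of 1285 uncalled members shows no slope (Pearson r -0.01 over all 1450 members).

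Of 9 members fixed as known from other tissues, Defb4 alone was called, lower in basal cells as given with the defensins, and Defb1 was not called in basal or luminal cells. With both inputs summed as divisor, Defb4 was no longer called in basal cells. Basal folds were below 1 in 7 of the 9, near the share over all members. Olfr78, a receptor of the carotid body and of blood vessels, had 184 ChIP and 142 input reads in basal cells and 133 and 177 in luminal cells (1.10- and 1.02-fold). Olfr558, also reported in vessels, had folds of 0.832 and 0.888, and Olfr16, the sperm receptor, 0.869 and 1.04. Olfr1393, reported in the kidney, had 0.965 and 0.815, and Vmn2r1, a V2R co-expressed with others in vomeronasal neurons, 0.849 and 0.824. Olfr544, reported in liver and fat, had 96 and 120 basal reads (0.679-fold, 0.471 to 0.974), which missed 1.5-fold. Defb14, an epithelial beta-defensin, had folds of 0.735 and 0.930. Beside Defb1 and Defb4, none of these other 7 was called in either cell type.

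Scatter among the members was wider than counting error. The variance of the counts around the members' common ratio was 2.40 times the counting variance in basal ChIP over input, 2.07 in luminal and 1.31 between the inputs, compared with 4.46, 2.87 and 1.91 over all tested genes. Defb regions had 3.71 in basal and 1.26 in luminal cells, and Vmn2r regions 3.18 in basal cells. With each interval widened by the members' own scatter, 43 of the 122 basal and 18 of the 37 luminal lower calls remained, against backgrounds of 0.856% and 0.597% under the same interval. The basal lower call of Defb4 was not among the 43. Among the named higher calls Vmn1r74 remained in basal cells, and Defb2 and Olfr1328 did not. Of the 3 members lower in both cell types, Olfr43 remained in both, and Olfr639 and Olfr1348 in neither. Between the inputs 37 of the 40 higher calls remained.

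The members lie in 84 genomic clusters (members of a superfamily on 1 chromosome with gaps under 1 Mb). The 34 clusters with 10 or more tested members hold 1267 of them. In basal ChIP over input the summed log2 ratio was below 0 in 34 of 34, with an interval below 0 in 31, and it ran from -0.27 (Olfr on chromosome 2, chr2:36376778-37332732) to -0.06 (Olfr on chromosome 4, chr4:118665519-118934840). In luminal cells it was below 0 in 32 of 34, with an interval below 0 in 12, and ran from -0.21 (Vmn2r on chromosome 5) to 0.24. Between the inputs it was above 0 in 33 clusters, with an interval above 0 in 29. The largest cluster, chr2:85330967-90401674 with 223 tested Olfr regions, had summed log2 ratios of -0.22 in basal cells, -0.04 in luminal cells and 0.26 between the inputs. The basal and input shifts were thus spread over the clusters. Over 1143 pairs of adjacent members at least 10 kb apart, the Pearson r between neighbours was 0.05 for the basal ratio, 0.04 for the luminal ratio and 0.20 for the ratio of inputs.

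**Figure D3:**
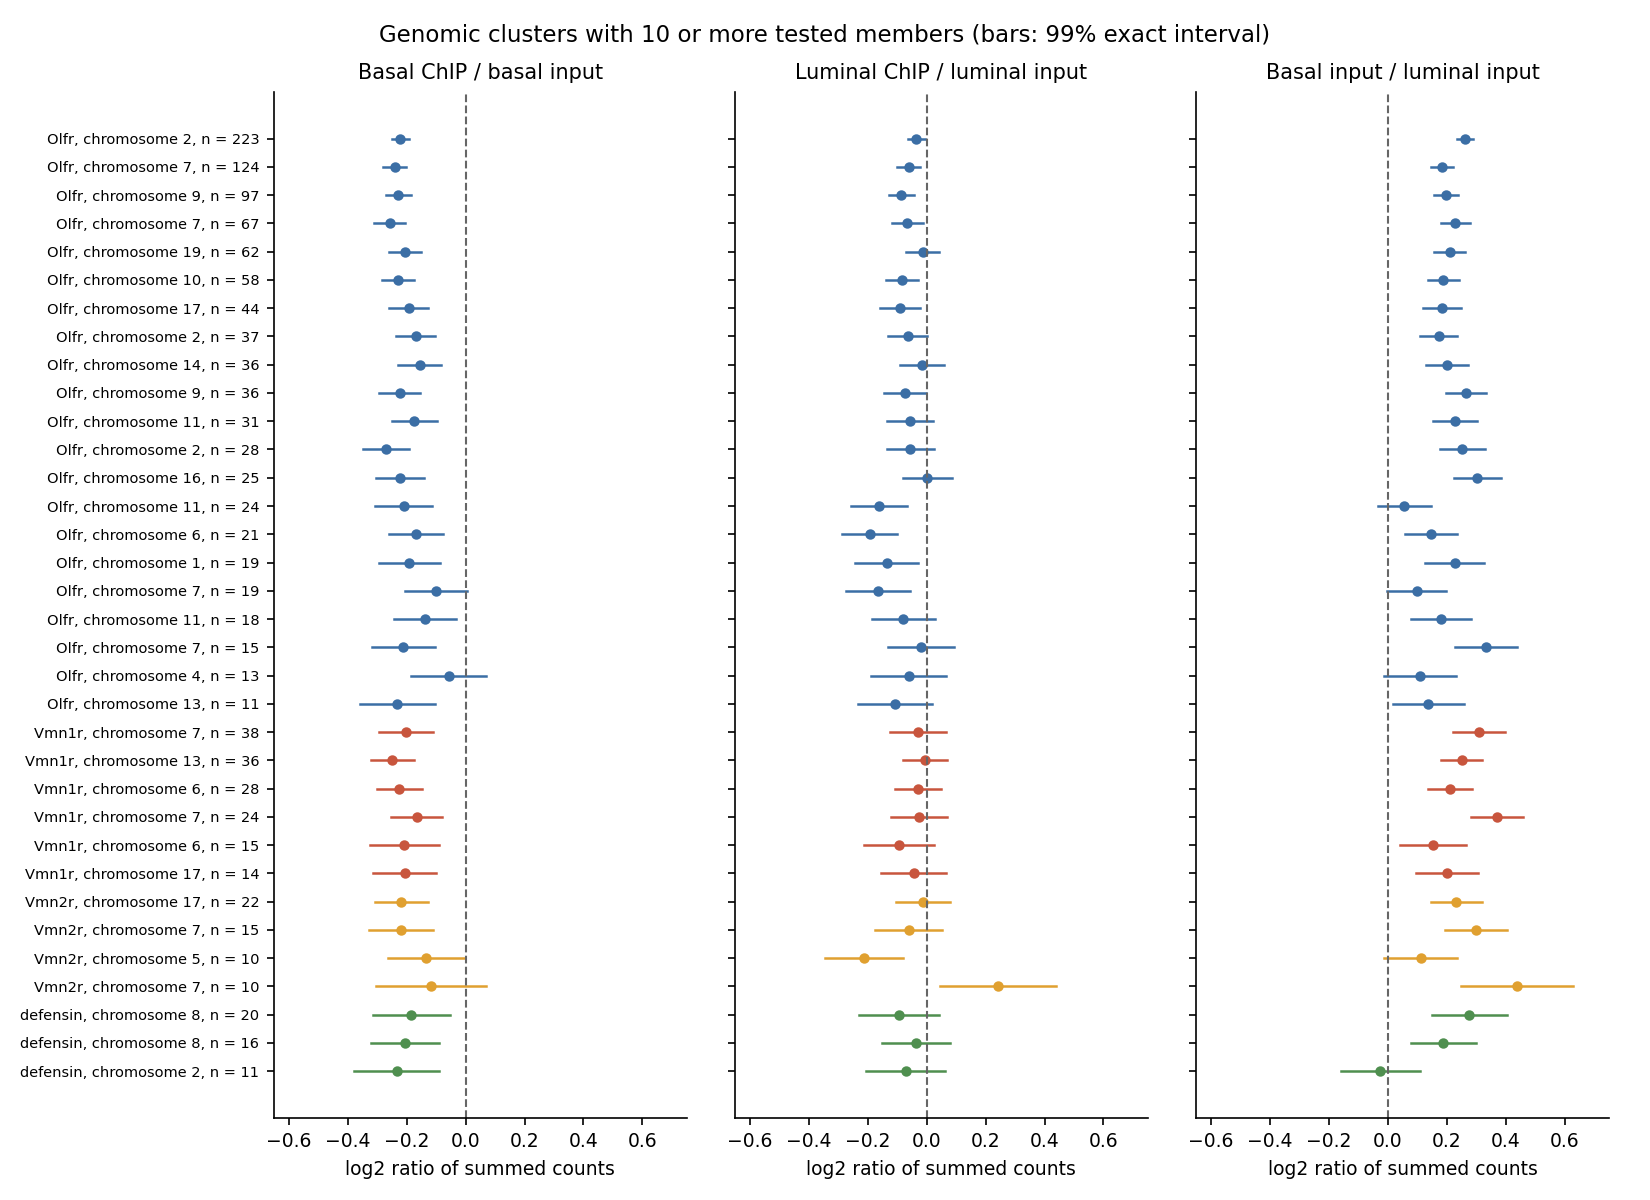
Log2 ratio of summed scaled counts with its 99% exact interval (horizontal axis) for each of the 34 clusters with 10 or more tested members, coloured by family, in the 3 comparisons. The left panel lies wholly below 0 (-0.27 to -0.06), the middle panel lies near 0, and the right panel shows values greater than 0 except for the defensin cluster on chromosome 2 at -0.03.

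A cluster of V2R genes on chromosome 7 (chr7:7212996-10176286) lay at the end of the range between the inputs and in luminal cells. It had the highest input ratio, with a summed log2 of 0.44 (0.25 to 0.63), and the highest luminal ChIP ratio, 0.24 (0.04 to 0.44), the 1 cluster whose luminal interval was above 0. The luminal interval leaves out the scatter among its 10 tested members, which was 2.52 times the counting variance, and their luminal median was 0.11. The basal value of the cluster was -0.12 (-0.31 to 0.07). The cluster holds Vmn2r48 and Vmn2r50, and many of its members had few reads, such as Vmn2r39 with 51 over the 4 libraries and Vmn2r44 with 34. The X-linked Olfr cluster, with 5 regions, had a basal value of -0.55 (-0.76 to -0.34). The cluster also had a basal scatter of 3.72 times the counting variance, which this interval leaves out. Its member Olfr1324 had 93 ChIP and 165 input reads in basal cells and 153 and 168 in luminal cells (basal fold 0.478). Over the 7 members on the X the basal median was -0.51, and it was -0.10 over other X-linked genes. That median rests on the cluster of 5, as the X-linked members outside it were at -0.15 (Olfr) and -0.10 (Vmn2r). On the X the input median was 0.33 for members and 0.09 for other genes.

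Base composition of the members' windows was set beside their ratios. With all tested genes divided by C+G into 5 bins of equal size, 92.8% of the 1216 members with a window fell in the lowest bin. With the members themselves divided into 5 bins, which was chosen after the values were seen, the median input log2 ratio was 0.25 in the bin of lowest and 0.12 in the bin of highest C+G. The basal medians of those end bins were -0.23 and -0.18, and the luminal medians -0.07 and -0.10. Over the 28 clusters with windows for at least 80% of their tested members, whose median C+G ran from 30.7% to 51.7%, the summed input ratio had a Pearson r of -0.65 and a Spearman rho of -0.55 with C+G. The basal ratio had 0.33 and 0.32, and the luminal ratio -0.25 and -0.43. The cluster at 51.7% was the defensin cluster on chromosome 2, at -0.03 between the inputs, which is among the 2 left out next. Without the 2 clusters farthest from the median C+G, r and rho were -0.46 and -0.44 for the inputs, 0.39 and 0.37 in basal cells and -0.31 and -0.41 in luminal cells, so the inputs and the luminal ratio then differed little. Over the 1216 members taken singly, the relations with C+G were weaker. Pearson r and Spearman rho were -0.20 and -0.21 for the inputs, 0.03 and 0.03 in basal cells, and -0.06 and -0.06 in luminal cells. All these values are descriptions across clusters or members that share the same libraries. The part of base composition in the input difference was not tested. Windows covered 67.4% of tested Defb, 8.33% of tested Defa and 74.8% of tested non-member regions, so a check by base composition is void for those sets.

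**Figure D4:**
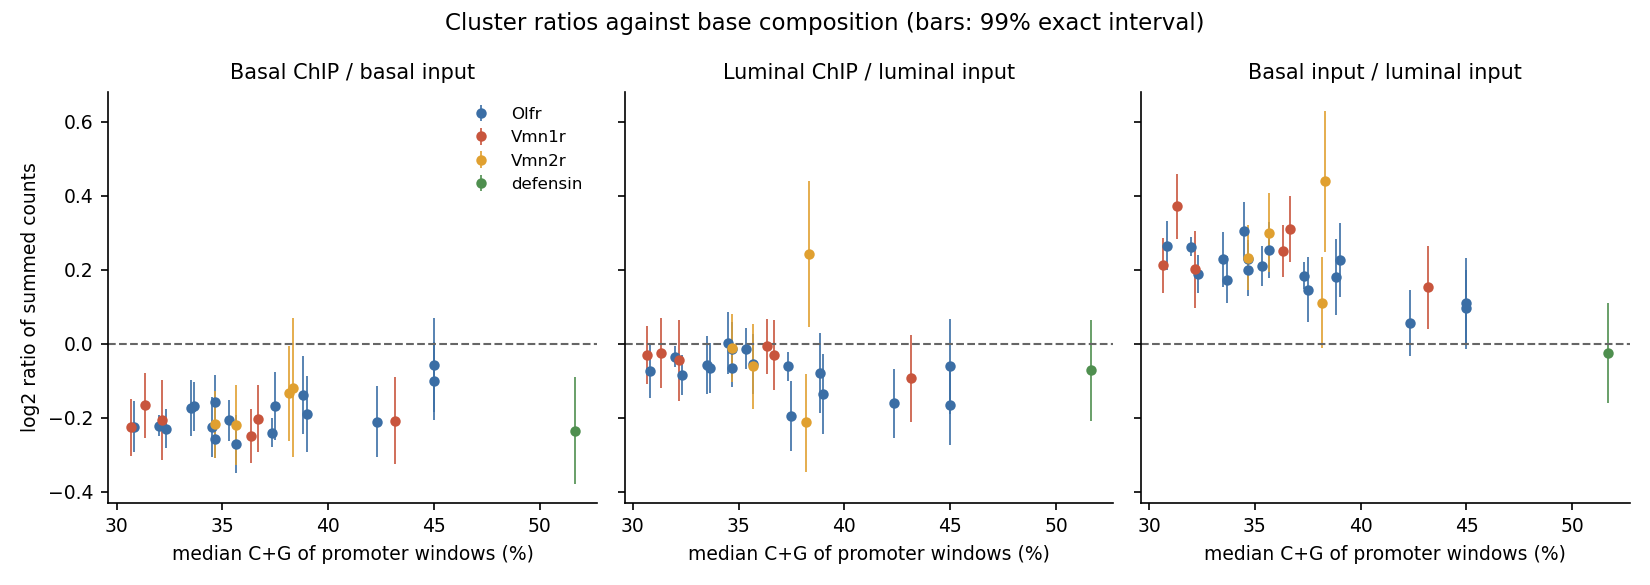
Log2 ratio of summed scaled counts with its 99% exact interval (vertical axis) against the median C+G of the RefSeq windows in percent (horizontal axis) for 28 clusters, coloured by family. In the right panel, basal over luminal input, the ratios fall as C+G rises from 30.7% to 51.7% (Pearson r -0.65), and in the left and middle panels r is 0.33 and -0.25.

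The forkhead letters TGTTTAC, searched on both strands, occurred in the windows of 69 of 1216 tested members (5.67%) and of 959 of all 27025 windows (3.55%). By family they were in 56 Olfr (6.03%), 12 Vmn1r (7.69%) and 1 Vmn2r window (0.990%). Member windows have far less C+G than the others, and the part of composition in these shares was not tested. Members with and without the letters in the window had like ratios: basal medians of -0.22 and -0.22, luminal medians of -0.10 and -0.07, and input medians of 0.18 and 0.22. The window is shorter than the part taken to be counted, so members without the letters may hold them elsewhere in that part. The split therefore cannot decide whether the letters bear on the ratios. Of the 69, 4 were called lower in basal cells (5.80%, against 8.63% of members without the letters) and 3 in luminal cells (4.35% against 2.70%), and 0 were called higher in either. Stretches around the letters are shown for 3 of these 7, because they are members that hold the motif and have fewer ChIP reads than input. The motif is in capitals, as TGTTTAC on the gene's strand in Olfr27 (chr9:39127993-39128043) and as the reverse complement GTAAACA in Olfr800 (chr10:129659668-129659718) and Olfr685 (chr7:105181470-105181520).
Olfr27: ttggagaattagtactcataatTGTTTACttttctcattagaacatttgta
Olfr800: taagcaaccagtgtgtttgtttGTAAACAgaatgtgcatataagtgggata
Olfr685: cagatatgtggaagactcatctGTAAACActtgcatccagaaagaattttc
Olfr27 had 86 reads in luminal ChIP and 212 in luminal input (0.552-fold), and 185 and 153 in the basal pair (1.03-fold). Olfr800 had 154 reads in basal ChIP and 198 in basal input, and Olfr685 had 118 and 158. The motif starts 152 bases before the gene start in Olfr27, 118 in Olfr800 and 187 in Olfr685. A match describes letters in a window, not a site.

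Of the 85 members under 40 reads, 64 had a window, and 50 of these shared sequence with the window of another gene. In the 85, 54 had 0 reads in all 4 libraries, and they included 33 Vmn1r, 19 Olfr, 18 Vmn2r and 15 Defa regions, and 0 Defb. Just under the minimum were Vmn1r112 with 27 reads, Olfr56 with 34, Vmn2r44 with 34 and Vmn2r41 with 37, and just above it Vmn1r126 with 47 and Vmn2r39 with 51. In the 55 members whose window shared all its 75-base words, the length of the shortest reads, with another gene's window, the median was 1 read over the 4 libraries, and 38 were under 40. In the 142 that shared some words the median was 547.5, and in the 1083 that shared none it was 628. A gap to the next gene of 5 kb or less occurred in 0 of the 75 with a position. Identical upstream bases occurred in 22 groups that hold 51 members, and 39 of these were under 40 reads. Vmn1r111 and Vmn1r118 are shown as an example of such a group. Their 100 bases before the start (chr7:20703217-20703316 and chr7:20912348-20912447, both minus strand, CpG in capitals) are the same, and both had 0 reads in each library.
Vmn1r111: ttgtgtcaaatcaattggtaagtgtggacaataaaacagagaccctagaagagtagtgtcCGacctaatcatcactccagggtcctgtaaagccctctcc
Vmn1r118: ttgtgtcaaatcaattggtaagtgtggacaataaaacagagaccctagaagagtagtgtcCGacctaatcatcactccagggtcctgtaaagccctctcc
How reads that fit several places were treated is stated in neither labels nor headers. Among the named regions, 70.4% of the words were shared for Vmn1r159 and 54.9% for Vmn2r48, so their counts may be split between copies.

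**Figure D5:**
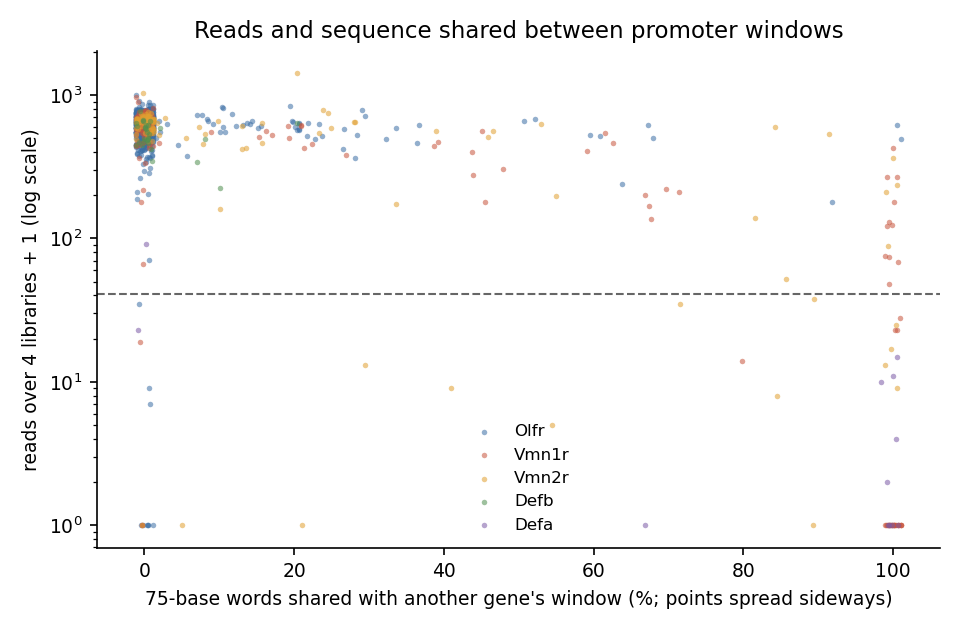
Reads over the 4 libraries plus 1 (vertical axis, log scale) against the share of 75-base words of a member's window held by another gene's window in percent (horizontal axis, points spread sideways), coloured by family. The dashed line is the minimum of 40 reads, and at full sharing 38 of 55 members lie under it.

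Other clustered families of restricted use gave values of the same kind. Taste receptors (36 tested) had median log2 ratios of -0.30 in basal cells, -0.06 in luminal cells and 0.32 between inputs. Trace amine receptors (15) had -0.18, -0.24 and 0.18, and Mas-related receptors (20) had -0.20, -0.23 and 0.13. Keratin-associated proteins (53) had -0.10, -0.17 and 0.15, and lectin-like receptors of natural killer cells (26) -0.14, -0.03 and 0.09. The signs in basal cells and between the inputs were those of the olfactory, vomeronasal and defensin regions in each of the 5, so no direction is particular to the members. Lower calls in basal cells numbered 6 taste receptors (16.7%), 2 Mas-related receptors (10%) and 1 keratin-associated protein (1.89%), against a background of 4.06%. They numbered 0 in the trace amine and the lectin-like receptors. Apart from these calls on short lists, the families were compared by their medians alone.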

How the data were processed

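Foxp1 ChIP and input DNA were sequenced from basal and luminal mouse mammary cells as single reads of 75 to 85 bp, 1 library each, per the labels' protocols. The authors deposited unnormalized read counts, made with featureCounts on mm10 per the submitters' processing notes. For the aligner, duplicate handling and counted region the sources used here give nothing. The per-sample files and the table were equal in 24548 of 24548 genes. Depth was 3772902 ChIP and 3080114 input reads in basal cells, and 3163948 and 4201459 in luminal cells.

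Counts were scaled with TMM (edgeR 4.0.16, R 4.3.3) over the 23128 genes with at least 40 counts. With 1 library per group no test was run and no p-value is given. The 99% interval of each ratio (exact, Clopper-Pearson) covers counting error only and treats reads as independent molecules. A count of 0.5 was added only where a library was at 0. Calls needed 1.5-fold and an interval excluding 1. The calculation was tested on simulated counts. Other steps used Python 3.11.15, numpy 2.4.6, pandas 2.3.3 and scipy 1.17.1.

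Positions and windows came from RefSeq tables on GRCm38.p6, matched by gene ID: 1524 of 1535 members had a position and 1280 a window. Members and lists were chosen with earlier results of these data known. Named members were those with the extreme interval bounds per family and comparison (4 at each end for Olfr, 2 for Vmn1r, Vmn2r and Defb, 1 for Defa), all called higher or alike in both cell types, and a set known from other tissues; Defa1 of that set is not among the genes analysed here. Other members named as examples of a count or a cluster were chosen after their values were seen. Alternatives were total-count, DESeq2 1.42.0 and member-free TMM scaling, other count minimums, 2-fold and 95% calls, wider intervals, summed inputs, and members without pseudogene symbols or near neighbours.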

Additional observations from a re-analysis of the deposited data

How the results depend on the processing

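No group median and no called named member changed direction under the 11 alternatives. Scaling by total counts gave medians of -0.27 in basal and -0.10 in luminal cells, and shifted the median of all tested genes to -0.07 and -0.04. DESeq2 size factors gave an input median of 0.21, and TMM without the members gave -0.23 in basal cells and 0.23 between inputs. At 2-fold the calls were 6 lower and 0 higher in basal cells (backgrounds 0.96% and 0.553%), 2 and 3 in luminal cells (0.571% and 0.203%), and 1 higher between inputs (0.0692%), shares of members at or under the background except for the luminal higher calls (0.207%). With the interval widened by the members' scatter they were 43 lower (2.97%, background 0.856%) and 1 higher (0.069%, background 3.49%) in basal cells and 18 lower (1.24%, background 0.597%) in luminal cells. With both inputs summed they were 49 lower (3.38%, background 3.74%) and 7 higher (0.483%, background 3.13%) in basal cells (median -0.10) and 56 lower (3.86%, background 2.4%) and 1 higher (0.069%, background 1.77%) in luminal cells (median -0.16). Count minimums, the 95% interval, and leaving out pseudogene symbols or members near another gene moved no count by over 1.5 times. At a median of 125 to 180 reads per library a single region shows differences of about 1.5-fold, not the group's shift. No paired analysis was possible because each group has 1 library, and for the same reason no replicate could be left out.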
